A study of Mus musculus with 16 samples.

Results

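Fkbp5 and 9 other genes of the glucocorticoid response were followed in demyelinated mouse spinal cord: the receptor genes Nr3c1 and Nr3c2, and the responders Tsc22d3, Sgk1, Per1, Zbtb16, Klf9, Errfi1 and Nfkbia. They are the 10 rows, of 46078 genes in the deposited count table, whose Ensembl identifier carries one of these symbols. The set was chosen by the measured difference of Fkbp5 between exercise and control at day 10, with the values of the other 9 genes also known. The day 10 difference is therefore described below and not tested.

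All mice were C57BL/6, were 8 to 12 weeks old and had received lysolecithin, a lipid that strips myelin from axons, in the spinal cord. The exercise mice had a running wheel that turned freely and the control mice a locked one, and lesions were taken at day 5 or day 10. The study asked how voluntary running acts on the repair of myelin. Each of the 4 groups held 4 libraries of laser-microdissected lesion, named here by the numbers in their titles. No genetic change is named for any group. The labels do not say that the libraries came from separate animals, and the spread behind each p-value may be technical. RNA was amplified before sequencing because little was available.

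Glucocorticoids are steroid hormones of the adrenal cortex, released on a daily rhythm and under stress. They bind the glucocorticoid receptor (Nr3c1) and, with higher affinity, the mineralocorticoid receptor (Nr3c2), which leave their chaperone complexes, enter the nucleus and bind DNA at glucocorticoid response elements. Fkbp5 encodes FKBP51, a co-chaperone that lowers the hormone affinity of the receptor complex and is itself induced by the receptor, which closes a negative feedback loop. In the nervous system these genes are expressed in glia and in neurons, and the responders include kinases, transcription factors and inhibitors of inflammatory signalling.

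The windows around annotated start sites show where the response element of this pathway occurs by sequence. RefSeq windows on GRCm38.p6 were each 300 bases long (250 before the start site to 50 after it). The 17 windows used here belong to 8 of the 10 genes. No window of Nr3c1 or Zbtb16 was among them, so the counts over the 17 windows do not cover these genes. Their absence from the windows used does not mean that these genes lack an annotated window. The windows of all genes, given below for comparison, may not have been limited in the same way. The 4 windows below are those of Fkbp5, the gene the set is named for, and of 3 responders that carry a searched motif. Capitals mark the matches to 4 motifs, searched on both strands: the full glucocorticoid response element (AGAACA, any 3 bases, TGTTCT), its single arm AGAACA, the E-box CACGTG (bound by clock factors among others) and the NF-kB motif (GGGA, any base, TTTCC).
Fkbp5, chr17:28486100-28486399, minus strand: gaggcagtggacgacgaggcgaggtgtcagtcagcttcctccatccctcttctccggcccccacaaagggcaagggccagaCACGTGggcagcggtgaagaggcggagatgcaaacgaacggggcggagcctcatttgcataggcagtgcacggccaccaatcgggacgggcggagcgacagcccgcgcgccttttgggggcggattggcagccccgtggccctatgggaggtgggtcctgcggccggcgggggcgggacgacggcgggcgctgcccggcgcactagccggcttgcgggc
Sgk1, the fifth of its windows, chr10:21993640-21993939, plus strand: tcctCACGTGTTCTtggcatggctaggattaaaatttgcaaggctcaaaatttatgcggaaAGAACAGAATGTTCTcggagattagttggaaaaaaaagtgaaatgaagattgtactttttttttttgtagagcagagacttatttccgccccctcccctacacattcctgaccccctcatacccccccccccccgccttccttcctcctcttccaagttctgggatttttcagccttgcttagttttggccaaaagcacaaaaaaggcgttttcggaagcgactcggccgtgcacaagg
Per1, the first of its windows, chr11:69098699-69098998, plus strand: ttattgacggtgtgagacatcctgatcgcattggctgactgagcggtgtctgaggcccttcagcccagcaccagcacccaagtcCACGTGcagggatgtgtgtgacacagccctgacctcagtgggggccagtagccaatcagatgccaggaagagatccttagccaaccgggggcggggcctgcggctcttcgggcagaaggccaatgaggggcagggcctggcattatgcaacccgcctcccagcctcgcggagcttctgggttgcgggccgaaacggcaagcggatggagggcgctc
Nfkbia, chr12:55492598-55492897, minus strand: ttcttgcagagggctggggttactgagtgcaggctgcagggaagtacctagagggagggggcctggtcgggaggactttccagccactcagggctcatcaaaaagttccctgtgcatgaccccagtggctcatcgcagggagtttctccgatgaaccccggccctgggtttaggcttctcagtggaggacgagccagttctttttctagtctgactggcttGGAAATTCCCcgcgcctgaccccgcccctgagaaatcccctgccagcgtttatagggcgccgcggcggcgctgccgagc

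The full response element occurred in 1 of the 17 windows, that of Sgk1, beginning 189 bases before the start site, and in 3 of 32851 windows of all genes (0.00913%). Single arms occurred in 4 of 17 windows, 3 of Sgk1 and 1 of Tsc22d3, against 18.97% of all windows; every full element also contains an arm on each strand. The Fkbp5 window held no arm of the element. It held an E-box 169 bases before the start site, and Per1 held one 166 bases before its own. Over all windows 7.15% held an E-box, and the Sgk1 E-box overlaps an arm on the other strand. The NF-kB motif lay 29 bases before the start site of Nfkbia, which encodes the inhibitor of NF-kB, against 0.411% of all windows. These are matches of letters within short windows; elements farther away were not searched.

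All 10 genes passed the filter on low counts. Levels between genes are compared per length, as CPM per kb of summed exons (CPM, the usual depth-normalised count, here with TMM-adjusted library sizes). Sgk1, a kinase that regulates ion channels and cell survival, had the highest level, at 143.7 CPM per kb (SD 17.04 over 16 libraries). Fkbp5 followed at 24.8 (SD 7.43) and Nr3c1 at 23.1 (SD 3.79), ahead of Nfkbia (18.2), Errfi1 (17.8), Klf9 (15.5) and Tsc22d3 (9.58). Per1 at 3.88, Nr3c2 at 1.92 and Zbtb16 at 0.195 CPM per kb were the lowest. The range of Sgk1, 122.7 to 190.1, lay above that of every other gene, while Fkbp5 (12.8 to 40.7) and Nr3c1 (16.2 to 27.9) overlapped. Nr3c1 thus stood above Nr3c2 in each of the 16 libraries. Zbtb16 had 182 counts in all, 2 to 28 per library, and passed the filter only through the control libraries of day 5.

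**Figure D1:**
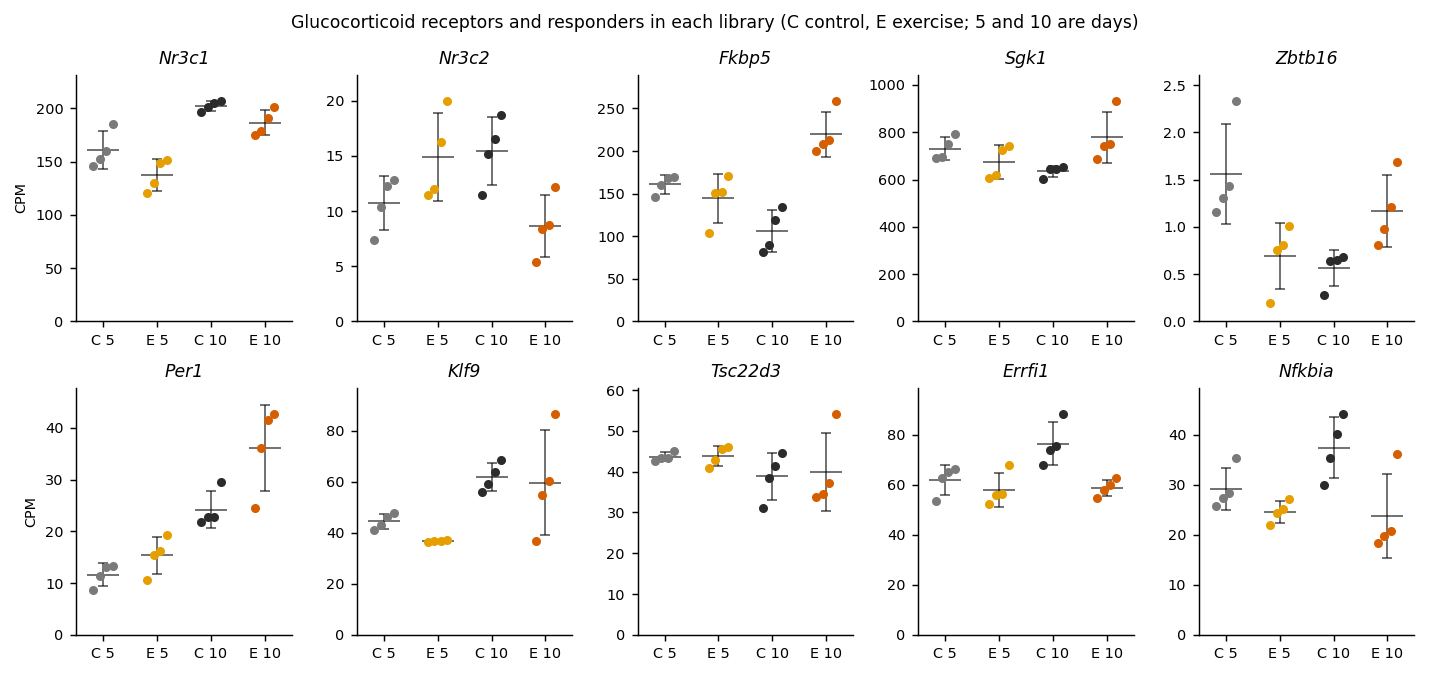
Level of each of the 10 genes in every library, in CPM, with a panel per gene and a column per group (C5 and E5, control and exercise at day 5; C10 and E10, at day 10). Points are libraries and bars the mean ± SD of 4; Fkbp5 is lowest in the C10 column, at 81.4 to 135 CPM, and highest in the E10 column, at 199.97 to 259 CPM.

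Fkbp5 (ENSMUSG00000024222, GRCm38 chromosome 17, 28399095 to 28517524, minus strand) was lowest in control lesions at day 10 and highest in exercise lesions at day 10. At day 5, the control libraries 1, 2, 5 and 6 held 161, 170, 146 and 168 CPM, and the exercise libraries 1, 2, 7 and 12 held 170, 151, 104 and 152 CPM. At day 10, the control libraries 2, 3, 4 and 5 held 89.5, 81.4, 119 and 135 CPM, and the exercise libraries 13, 17, 18 and 19 held 213, 259, 208 and 199.97 CPM. Values of the other genes follow the same order of libraries. The day 10 exercise libraries of Fkbp5 lay above all 12 others, and the 3 remaining groups overlapped in part: control day 5 lay above control day 10, and exercise day 5 overlapped both.

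The group means of Fkbp5 were 161 ± 11.1 CPM in control and 144 ± 28.3 CPM in exercise at day 5, and 106 ± 24.9 and 219.8 ± 26.5 CPM at day 10 (SD, n = 4 each). At day 10 exercise was 2.07-fold above control (log2 1.05, SE 0.16). Between day 5 and day 10 the estimate was -0.60 (SE 0.16) in control and 0.61 (SE 0.16) in exercise. Because the day 10 libraries were used to choose the gene, neither value is tested. Relative to day 5, the day 10 mean was thus lower in control and higher in exercise. The day 10 difference between exercise and control was 0.93 to 1.19 when each of the 8 libraries was left out in turn, and 0.95 (SE 0.18) in the authors' deposited table, which leaves out exercise replicate 17.

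At day 5, whose libraries were not used in the choice, no difference of Fkbp5 between exercise and control was detected. The log2 difference was -0.16 (SE 0.16, 95% interval -0.49 to 0.17, adjusted p 0.768 in edgeR's quasi-likelihood fit). Whether the effect of exercise on Fkbp5 differed from day 5 to day 10 was not tested, since that would use the day 10 contrast that chose the gene. None of the 10 genes passed the threshold of 0.05 in this comparison, where no test is read from Zbtb16, kept by the filter through its control libraries. Nor did any of the 15096 genes tested (0%), of which 1513 had an unadjusted p under 0.05. DESeq2 called 80 genes at day 5, none of them among the 10, and limma-voom called 0.

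Nr3c1, the glucocorticoid receptor gene (ENSMUSG00000024431, chromosome 18, 39410545 to 39491301), rose from day 5 to day 10 in control and in exercise lesions. Control libraries held 160, 152, 186 and 146 CPM at day 5 and 207, 205, 201 and 196 CPM at day 10. Exercise libraries held 152, 148, 120 and 130 CPM at day 5 and 175, 201, 179 and 191 CPM at day 10. Within both conditions every day 10 library lay above every day 5 library. The log2 change was 0.33 in control (SE 0.10, adjusted p 0.0331 by edgeR) and 0.44 in exercise (SE 0.10, adjusted p 0.00873).

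The Nr3c1 call in control lesions was lost, with adjusted p between 0.0578 and 0.0860, when any single library other than control day 5 replicate 5 was left out. In exercise lesions it held without each library. At day 5 Nr3c1 was estimated lower in exercise, at 137 ± 15.01 against 161 ± 17.5 CPM, a log2 difference of -0.23 (95% interval -0.43 to -0.02) that did not pass (edgeR adjusted p 0.463). At day 10 the means were 186 ± 11.8 CPM in exercise and 202 ± 4.78 CPM in control, a log2 difference of -0.12 (SE 0.10, not tested), with overlapping libraries.

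Nr3c2, the mineralocorticoid receptor gene (ENSMUSG00000031618, chromosome 8, 76899442 to 77245012), had its 2 lower group means in the groups where Fkbp5 had its 2 higher ones. It held 12.2, 10.4, 12.8 and 7.41 CPM in control and 16.2, 12.0, 11.5 and 19.98 CPM in exercise at day 5. At day 10 the control libraries held 16.6, 18.7, 11.4 and 15.1 CPM and the exercise libraries 12.2, 5.37, 8.42 and 8.73 CPM. The groups overlapped in every comparison. Its mean at day 10 was 1.78-fold lower in exercise (log2 -0.83, SE 0.25, not tested), while the day 5 estimate had the other sign, 0.48 (95% interval -0.04 to 1.004, edgeR adjusted p 0.529).

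From day 5 to day 10 the Nr3c2 estimates were 0.53 in control (edgeR adjusted p 0.176) and -0.78 in exercise (adjusted p 0.0549), and neither passed. Without exercise day 10 replicate 13 the exercise value was -1.002 and passed (edgeR adjusted p 0.0235), as it did with all libraries in DESeq2 (adjusted p 0.0276).

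Among the responders, Sgk1 had the same order of group means as Fkbp5. Sgk1 (ENSMUSG00000019970, chromosome 10, 21882184 to 21999903) held 643, 601, 646 and 653 CPM in control and 687, 932, 750.4 and 743 CPM in exercise at day 10. Exercise lay above control without overlap, 1.22-fold in the means (log2 0.29, SE 0.11, not tested), and without library 17, the highest, the estimate was 0.19. At day 5 the means were 731 ± 48.0 CPM in control and 674 ± 70.6 CPM in exercise, with overlapping libraries and a log2 difference of -0.12 (95% interval -0.34 to 0.10, edgeR adjusted p 0.739). Its changes with time, -0.20 in control (edgeR adjusted p 0.235) and 0.21 in exercise (adjusted p 0.226), did not pass.

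Zbtb16 (ENSMUSG00000066687, chromosome 9, 48654311 to 48835945), which encodes the transcription factor PLZF, was at the edge of detection. It held 1.43, 2.33, 1.16 and 1.31 CPM in control and 0.812, 0.760, 0.193 and 1.01 CPM in exercise at day 5, and 0.683, 0.636, 0.279 and 0.655 CPM in control and 1.21, 0.976, 1.68 and 0.812 CPM in exercise at day 10. Exercise thus lay below control at day 5 and above it at day 10, without overlap at either day. The estimates were -1.15 at day 5 (SE 0.49) and 1.04 at day 10 (SE 0.50). From day 5 to day 10 they were -1.44 in control (SE 0.49) and 0.75 in exercise (SE 0.49, edgeR adjusted p 0.368). The 4 control libraries of day 5, through which the gene passed the filter, are the higher group of the day 5 and of the control estimate, so no test is read from either.

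Errfi1 and Nfkbia had the opposite order at day 10. Errfi1 (ENSMUSG00000028967, chromosome 4, 150853919 to 150868892) encodes MIG6, an inhibitor of the EGF receptor, and held 75.6, 88.3, 68.1 and 74.1 CPM in control and 54.9, 62.7, 59.8 and 57.8 CPM in exercise at day 10. Every exercise library was below every control library, 1.30-fold in the means (log2 -0.38, SE 0.11, not tested). At day 5 the groups held 61.9 ± 5.87 and 58.1 ± 6.76 CPM, with a log2 difference of -0.09 (95% interval -0.32 to 0.14, edgeR adjusted p 0.822). Errfi1 was estimated higher at day 10 than at day 5 in control (0.31, edgeR adjusted p 0.0763), without overlap of the libraries, and at 0.02 in exercise (adjusted p 0.951).

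Nfkbia (ENSMUSG00000021025, chromosome 12, 55489411 to 55492647) held 40.0, 29.9, 35.4 and 44.05 CPM in control and 18.3, 19.8, 36.1 and 20.7 CPM in exercise at day 10. Exercise libraries 13, 17 and 19 lay below every control library, while library 18 lay among them. The means differed 1.57-fold (log2 -0.65, SE 0.19, not tested). At day 5 Nfkbia held 29.1 ± 4.21 CPM in control and 24.6 ± 2.18 CPM in exercise, and neither that difference (-0.25, edgeR adjusted p 0.692) nor its changes with time passed (0.36 in control, adjusted p 0.235; -0.05 in exercise, adjusted p 0.905).

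Per1, a repressor of the circadian clock that glucocorticoids also induce, rose from day 5 to day 10 in control and in exercise lesions. Per1 (ENSMUSG00000020893, chromosome 11, 69095217 to 69109960) held 8.59, 11.4, 13.2 and 13.2 CPM in control and 19.2, 10.5, 16.3 and 15.5 CPM in exercise at day 5. At day 10 control held 21.7, 29.5, 22.8 and 22.8 CPM and exercise 41.5, 36.1, 42.7 and 24.5 CPM. In both conditions the day 10 libraries lay above the day 5 libraries without overlap. The rise was 1.06 on the log2 scale in control (SE 0.21, adjusted p 0.0026 by edgeR) and 1.23 in exercise (SE 0.20, adjusted p 0.00112), and both calls held without each library.

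Exercise and control libraries overlapped for Per1 at both days. The estimate was 0.41 at day 5 (95% interval -0.02 to 0.85, edgeR adjusted p 0.52) and 0.58 at day 10 (SE 0.20, 1.49-fold, not tested), where exercise library 19 lay within the control range. The hour at which lesions were collected is not given in the sources used here, and its part in the level of this rhythmic gene was not tested.

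Klf9, a transcription factor induced by glucocorticoids and thyroid hormone, rose with time in exercise lesions. Klf9 (ENSMUSG00000033863, chromosome 19, 23141226 to 23166911) held 36.7, 36.4, 36.6 and 37.3 CPM at day 5 and 60.4, 36.9, 86.5 and 54.7 CPM at day 10 in exercise, where libraries 13, 18 and 19 lay above day 5 and library 17 lay within it. The log2 change was 0.70 (SE 0.17, edgeR adjusted p 0.0145); it was 0.46 without exercise day 10 replicate 18 (adjusted p 0.0520), and the call was also lost when only the 2 groups were fitted (adjusted p 0.0717). In control lesions Klf9 went from 44.5 ± 2.999 to 61.9 ± 5.53 CPM without overlap of the libraries, an estimate of 0.48 that did not pass (edgeR adjusted p 0.0757) but did when only these 2 groups were fitted (adjusted p 0.00878).

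At day 5 the 4 exercise libraries of Klf9 lay below the 4 control libraries (36.4 to 37.3 against 41.1 to 47.7 CPM). The log2 difference of -0.28 did not pass (95% interval -0.64 to 0.09, edgeR adjusted p 0.611), and in the authors' deposited table it is -0.28 with an adjusted p of 0.159. At day 10 Klf9 means were 59.6 ± 20.5 CPM in exercise and 61.9 ± 5.53 CPM in control, a log2 difference of -0.05 (SE 0.17, not tested) that was 0.12 without exercise replicate 17.

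Tsc22d3 (ENSMUSG00000031431, chromosome X, 140539528 to 140600659) encodes GILZ, a leucine zipper protein that restrains inflammatory signalling and is a much-used readout of receptor activity. It held 42.6, 43.4, 45.2 and 43.3 CPM in control and 42.9, 40.9, 45.5 and 46.1 CPM in exercise at day 5, and 38.6, 44.5, 31.0 and 41.5 CPM in control and 34.6, 33.8, 54.1 and 37.1 CPM in exercise at day 10. All groups overlapped. The difference between exercise and control was 0.01 at day 5 (95% interval -0.29 to 0.31, edgeR adjusted p 0.992) and 0.04 at day 10 (SE 0.14, not tested), where it was -0.15 without exercise replicate 18. Changes with time were -0.16 in control (edgeR adjusted p 0.495) and -0.14 in exercise (adjusted p 0.598).

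Across the set, the 10 genes had no common direction with exercise. At day 10, 5 estimates were higher and 5 lower in exercise, with a median of -0.01 against 0.01 over all 15096 genes. Of the 10, Fkbp5, Sgk1 and Zbtb16 lay higher without overlap and Errfi1 lower, where 3.3% and 2.58% of all genes did so; nothing is read from this, since the genes were chosen with these values known. Fkbp5 was among the 29 genes (0.192%) that edgeR called in this comparison, which is how it was chosen. That number was 0 without control replicate 2, control replicate 3, exercise replicate 17 or exercise replicate 19, 1 without exercise replicate 13, 2 without control replicate 5, 19 without control replicate 4 and 133 without exercise replicate 18. At day 5, 3 estimates were higher and 7 lower, with a median of -0.14, and Klf9 lay lower without overlap, as did 3.97% of all genes, beside Zbtb16, which the filter kept through its control libraries.

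With time, Nr3c1 and Per1 passed in control lesions, both higher, out of 9 genes that include Zbtb16, from which no test is read there. Of all genes 12.3% passed in either direction and 5.66% were higher. Nr3c1, Per1, Klf9 and Errfi1 lay higher there without overlap, against 9.33% of all genes, and Sgk1 lower, as did 10.7%. Fkbp5 and Zbtb16 were also lower without overlap, but the first was chosen on its day 10 values and the second was kept by its day 5 control libraries, so neither is counted against that share. In exercise lesions 3 of 9 passed (Nr3c1, Per1 and Klf9, all higher), against 10.1% in either direction and 5.17% higher. Nr3c1 and Per1 lay higher there without overlap, as did 7% of all genes; Fkbp5 did too but was chosen on its day 10 values. The median over all 10 was 0.32 in control and 0.32 in exercise, against 0.01 over all genes. Nothing is read from this median, since it includes Fkbp5, chosen on its day 10 values, and Zbtb16, kept by its day 5 control libraries. The exercise comparisons and the time comparisons share groups, so their values are not independent. The values of the other 9 genes were also known when the set was chosen, so the counts beside these shares are a description.

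**Figure D2:**
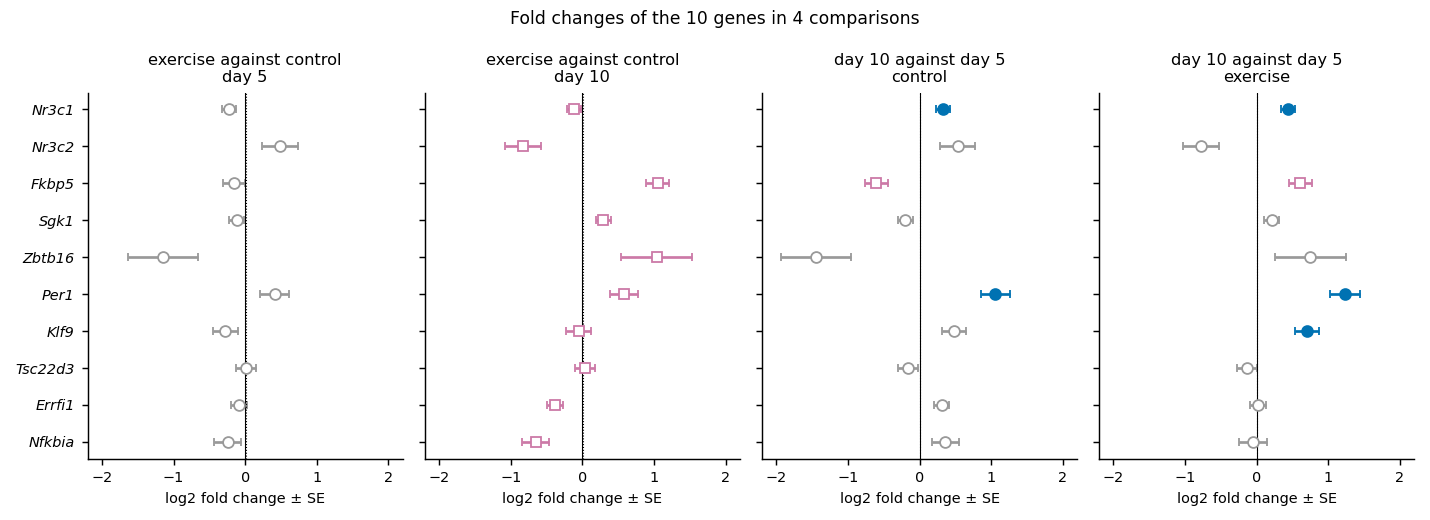
Log2 fold change ± SE of the 10 genes in the 4 comparisons (exercise against control at day 5 and at day 10, day 10 against day 5 in control and in exercise), with the median of all genes as a dotted line. Filled circles passed the adjusted p threshold of 0.05, open circles did not, and open squares are values given without a test. Open circles also mark Zbtb16 at day 5 and with time in control, where no test is read. Per1 and Nr3c1 are filled in both time comparisons and Klf9 in exercise.

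Other genes of the pathway were taken from lists of the receptor's targets, its chaperones and hormone activation, its coregulators, and the NF-kB and clock genes it acts on. With edgeR, exercise against control gave 0 calls in each of these lists at day 5 and at day 10, where 0% and 0.192% of all genes were called. At an unadjusted p under 0.05 there were 1 to 3 genes a list at day 5 and 1 to 6 at day 10. Of all 15096 genes, 1513 at day 5 and 1935 at day 10 were under it too. DESeq2 called 1 of the induced genes, lower, at day 10, where it called 227 of all genes. The list of other glucocorticoid-induced genes (23 of 27 tested) had a median of 0.15 at day 5 and -0.25 at day 10, with 16 of 23 estimates lower in exercise at day 10. The clock list (17 genes) had medians of -0.18 and -0.06.

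With time, 12.3% of all genes passed in control (5.66% higher) and 10.1% in exercise (5.17% higher), and the lists are given beside these shares. Of the 23 induced genes 5 passed in control, 4 higher and 1 lower (1 to 3 in all when each library was left out), and 5 in exercise, 2 higher and 3 lower (2 to 4). Ddit4, an inhibitor of mTOR signalling, rose from 18.6 ± 4.18 to 31.0 ± 6.45 CPM in control (0.73, edgeR adjusted p 0.0099). Txnip, an inhibitor of thioredoxin, rose from 175 ± 15.6 to 253 ± 39.2 CPM in exercise (0.53, edgeR adjusted p 0.0125). Lcn2, an iron-siderophore carrier of inflamed tissue, fell from 24.4 ± 12.9 to 6.37 ± 1.93 CPM in exercise (-1.94, edgeR adjusted p 0.00605), although the 2 groups overlapped. These 3 calls held without each library, but that of Lcn2 was lost with limma-voom (-1.64, adjusted p 0.0585).

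Of the 13 genes of chaperones and hormone activation, 0 rose and 2 fell in control (0 to 2 called with a library left out), where 12.3% of all genes passed, and 0 rose and 1 fell in exercise (0 to 2), where 10.1% passed. Hsp90aa1, the inducible form of the HSP90 chaperone that holds the unliganded receptor, was lower at day 10 in both conditions, at -0.34 in control (edgeR adjusted p 0.0238) and -0.36 in exercise (adjusted p 0.0207). The control call was lost without control day 5 replicate 5 or without control day 10 replicate 2, 3 or 4 (adjusted p up to 0.0772), and with no low-count filter (0.0604). The exercise call was lost without exercise day 5 replicate 2 or exercise day 10 replicate 19 (edgeR adjusted p up to 0.0702), and with only the 2 groups fitted (0.0792). Fkbp4, which encodes FKBP52, the counterpart of FKBP51 in the receptor complex, held 53.3 ± 6.82 CPM in control and 46.4 ± 3.18 CPM in exercise at day 5, and 51.1 ± 6.48 and 44.0 ± 3.48 CPM at day 10. Hsd11b1, whose product regenerates active hormone inside cells, held 5.96 ± 3.27, 6.74 ± 3.995, 9.59 ± 1.65 and 8.10 ± 2.12 CPM in the same order. Neither gene passed in any of the 4 comparisons.

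Of the 12 coregulators, 1 rose in control (0 to 1 with a library left out) and 3 rose in exercise (1 to 3), where 5.66% and 5.17% of all genes were called higher. Ep300, a histone acetyltransferase recruited by the receptor, rose in exercise from 44.1 ± 6.12 to 64.3 ± 8.15 CPM (0.54, edgeR adjusted p 0.00922), a call that held without each library. In the NF-kB and inflammatory list, 5 of 17 genes rose and 1 fell in control (2 to 4 called with a library left out), and 1 rose and 2 fell in exercise (2 to 4), against 12.3% and 10.1% of all genes in either direction. Relb, a subunit of the noncanonical NF-kB pathway, rose in control from 6.83 ± 1.06 to 14.4 ± 1.84 CPM (1.07, edgeR adjusted p 0.0103). In exercise Nfkb1, the p50 subunit gene, rose from 69.1 ± 7.32 to 103 ± 5.35 CPM (0.58, edgeR adjusted p 0.00157), and Ccl2, a monocyte chemokine, fell from 34.7 ± 14.3 to 10.4 ± 1.92 CPM (-1.73, adjusted p 0.000443). The calls of Relb, Nfkb1 and Ccl2 named here held without each library.

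Clock genes were called only upward with time: 3 of 17 in control (1 to 2 with a library left out) and 3 of 17 in exercise (1 to 4), where 5.66% and 5.17% of all genes were called higher, with medians of 0.21 and 0.41 against 0.01 over all genes. Nr1d2, a repressor of the clock, rose in exercise from 14.9 ± 2.64 to 25.8 ± 5.06 CPM (0.79, edgeR adjusted p 0.0132), a call that held without each library. In control Nr1d2 was estimated at 0.71 (edgeR adjusted p 0.0186), and that call was lost without control day 5 replicate 2 or 6 or control day 10 replicate 2 or 3 (adjusted p up to 0.0626). Among 16 paralogs of the 10 genes, 2 rose and 1 fell in each condition, against 12.3% and 10.1% of all genes.

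**Figure D3:**
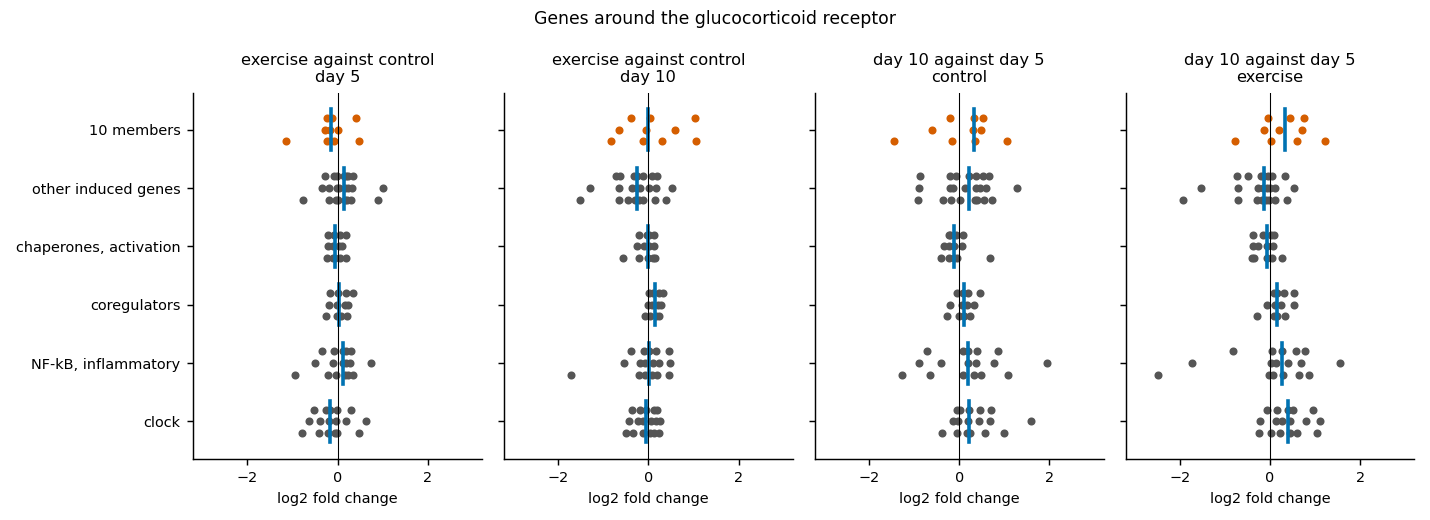
Log2 fold change of every tested gene of the 10-gene set and of 5 lists (other induced genes, chaperones and hormone activation, coregulators, NF-kB and inflammatory genes, clock genes) in the 4 comparisons. Points are genes and blue bars the median of each list; the clock list has its highest median, 0.41, for day 10 against day 5 in exercise.

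The genes whose level most resembled that of Fkbp5 were found by Pearson correlation of log2 CPM over the 16 libraries, which differ in group and share their processing. These libraries hold the day 10 values on which Fkbp5 was chosen, so r is described and not tested. Over 15095 other genes the 95th percentile of r was 0.462. The 5 with the highest r outside the set were Tnfrsf11a (0.84), Notch4 (0.83), Spire1 (0.82), Cep68 (0.82) and Eefsec (0.81), with Spearman's rho of 0.74 to 0.85. Without the 2 libraries farthest from the median of Fkbp5, control day 10 replicates 2 and 3, r was 0.70 to 0.84. After each group's mean was subtracted, r was 0.47 to 0.67, so part of the likeness lies between the groups. By that value the 5 genes ranked from 96 to 905 among 15096 genes, Fkbp5 itself included. Tnfrsf11a, the receptor for RANK ligand, had means of 51.2 ± 2.43 CPM in control and 53.5 ± 5.67 CPM in exercise at day 5, and of 37.5 ± 3.78 and 61.9 ± 12.5 CPM at day 10.

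Within the set, Sgk1 (r 0.65, rho 0.64) and Zbtb16 (r 0.58, rho 0.67) lay closest to Fkbp5. Nr3c2 (r -0.66), Errfi1 (-0.59) and Nfkbia (-0.51) ran against it, and Per1 (0.20), Nr3c1 (-0.06), Tsc22d3 (-0.12) and Klf9 (-0.18) lay between. These r include the day 10 group differences described above, so they are not separate evidence. Without control day 10 replicates 2 and 3, r was 0.55 for Sgk1, 0.65 for Zbtb16, 0.51 for Per1, 0.39 for Nr3c1 and 0.21 for Klf9. It was -0.55 for Nr3c2, -0.44 for Nfkbia, -0.17 for Errfi1 and -0.14 for Tsc22d3. The values of Errfi1, Per1, Nr3c1 and Klf9 thus depend on those libraries. With group means subtracted, r with Fkbp5 was 0.35 for Zbtb16, 0.21 for Nr3c1, 0.19 for Sgk1 and 0.13 for Nfkbia. It was -0.40 for Klf9, -0.35 for Tsc22d3, -0.22 for Nr3c2, -0.12 for Errfi1 and -0.09 for Per1. The highest value among the 10 genes after this subtraction was that of Tsc22d3 with Klf9 (0.76), both of which were highest in exercise library 18 of day 10.

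**Figure D4:**
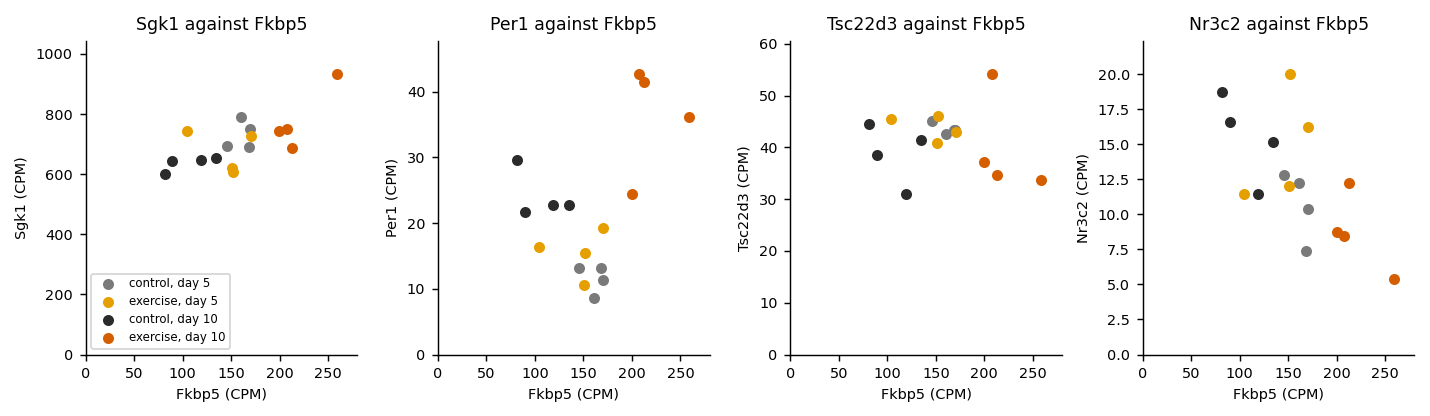
Sgk1, Per1, Tsc22d3 and Nr3c2 (each in CPM) against Fkbp5 (CPM) in the 16 libraries, coloured by group. The 4 day 10 exercise libraries lie to the right, at 199.97 CPM of Fkbp5 or more, with Sgk1 at 687 to 932 CPM and Nr3c2 at 5.37 to 12.2 CPM.

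The lesions are mixtures, and in bulk RNA fewer cells of a type and less RNA per cell cannot be told apart. Markers of glia and of macrophages were present. Summed over its list, the level of microglia and macrophages ran from 7881 to 17881 CPM. That of mature oligodendrocytes ran from 10595 to 27132 CPM and that of astrocytes from 3258 to 7968 CPM. The low lists were neutrophils (0.0976 to 8.11 CPM, with Mpo and Elane at 0 counts in every library), lymphocytes (0.279 to 2.89 CPM), erythrocytes (0 to 6.91 CPM) and skeletal muscle (0.0819 to 5.05 CPM, with Myh4 at 0). Library totals ran from 8.13 to 13.93 M counts (M, mega). At day 5 the exercise libraries, at up to 10.93 M, were all shallower than the control libraries, at 11.2 M or more. Mitochondrial ribosomal RNA (mt-Rnr2) made up 8.05% to 10.28% of counts in control and 10.91% to 12.94% in exercise at that day, and its part in the day 5 values was not tested.

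Several marker lists also stood higher or lower in exercise at day 10, beside Fkbp5. In that comparison edgeR called 29 of all genes (0.192%), and 0 to 133 with a library left out. The microglia and macrophage sum was 7881 to 10726 CPM in control and 8676 to 17881 CPM in exercise, with all 10 genes estimated higher in exercise and 1 called. Mature oligodendrocyte markers ran from 23614 to 26462 CPM in control and from 11761 to 27132 CPM in exercise, with all 8 estimated lower and 0 called. Endothelial markers, 245 to 282 CPM in control and 203 to 270.2 CPM in exercise, had 7 of 8 genes estimated lower and 1 called. Exercise library 17 had the highest microglia and macrophage sum and the lowest oligodendrocyte sum of its group, and also the highest Fkbp5 and Sgk1. The part of these cell types in the result was not tested. Without library 17 the Fkbp5 estimate was 0.96.

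Mural cell markers at day 10 were 228 to 275 CPM in control and 177 to 205 CPM in exercise (7 of 7 estimated lower, 0 called), fibroblast and meningeal markers 3474 to 4746 and 1286 to 3862 CPM (4 of 6 lower, 1 called), astrocyte markers 6619 to 7968 and 4988 to 7132 CPM (7 of 8 lower, 0 called), and oligodendrocyte precursor markers 977 to 1215 and 773 to 1117 CPM (6 of 7 lower, 0 called). Schwann cell markers overlapped (285 to 401 and 257 to 458 CPM). Of all genes 0.192% were called in this day 10 comparison. With time in control, 6 of 8 oligodendrocyte and 5 of 8 astrocyte markers were called higher (5.66% of all genes), beside the rises of Nr3c1 and Per1. In control 2 of 9 neuronal markers were called lower and 0 higher, and of 10 microglia and macrophage markers 2 higher and 1 lower (12.3% of all genes in either direction). In exercise, 4 of 10 microglia and macrophage markers were called higher and 1 lower, and 4 of 9 neuronal markers lower (10.1% of all genes in either direction). Also called in exercise were 3 of 8 oligodendrocyte and 2 of 8 astrocyte markers, all higher, and 3 of 8 endothelial markers, all lower. These exercise calls stood beside the rises of Nr3c1, Per1 and Klf9. Neuronal markers at day 5 were 353 to 510.2 CPM in control and 499 to 963 CPM in exercise. The part of these lists in the values of the 10 genes was not tested.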

How the data were processed

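RNA was measured in 16 libraries of laser-microdissected spinal cord lesion. Per the labels' protocols it was amplified, selected for poly(A) and sequenced strand-specifically as single reads of 75 bases. The submitters' processing notes name TopHat2 2.0.10, Bowtie 1.1.2 and FastQC 0.11.4, and GRCm38 as the build. Per the file headers, featureCounts 1.5.0-p1 made the deposited raw counts, with same-strand counting per Ensembl gene. The authors' deposited comparison tables give each gene's log2 fold change with its standard error, raw p-value and adjusted p-value, and the processing notes name DESeq2 1.12.4. The authors' normalized and variance-stabilised values were not used.

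Symbols came from GENCODE mouse release M21 on GRCm38, which named 45143 of 46078 genes. Exon lengths and coordinates were those given with the deposited raw counts. Counts were fitted in R 4.3.3 with edgeR 4.0.16. Its filterByExpr with the 4 groups kept 15096 genes (at least 10 counts, total at least 15). TMM scaling and a robust quasi-likelihood model with 1 mean per group over all 16 libraries (12 residual degrees of freedom) followed. Adjusted p-values are Benjamini-Hochberg over 15096 genes with a threshold of 0.05, and tests are two-sided. CPM use the TMM-adjusted library sizes, and log2 CPM for correlations used a prior count of 2. The fit was tested on simulated data. The alternatives were DESeq2 1.42.0, voom of limma 3.58.1, RLE size factors, no filter, only the 2 groups compared, leaving out each library and, where numbers are shared, a replicate block.

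The 10 genes, the pathway lists and the marker lists were chosen with earlier results of these data known. The genes named are all 10, the 5 genes with the highest Pearson r with Fkbp5, Fkbp4 and Hsd11b1, and in each list at most the 4 called genes with the smallest p. Of these called list genes, paralogs aside, the text names those whose call held without each library, plus Hsp90aa1 and, in control, Nr1d2. This narrowing was made after their values were seen. Among the paralogs, the calls of Fkbp9 and Sgk3 in control and of Fkbp3 in exercise also held without each library. The smallest group difference that could be called was limited by 4 libraries a group.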

Additional observations from a re-analysis of the deposited data

Results flagged for a closer look

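In 4 of 40 groups of 4 libraries (10 genes by 4 groups), 1 library stood apart by Dixon's test at its 95% critical value; chance gives about 1 in 20. Tsc22d3 was 54.1 CPM in exercise replicate 18 of day 10 against 33.8 to 37.1 CPM in the other libraries. Nfkbia was 36.1 CPM in the same library against 18.3 to 20.7 CPM. Per1 was 29.5 CPM in control replicate 3 of day 10 against 21.7 to 22.8 CPM. Zbtb16 was 0.279 CPM in control replicate 4 of day 10 against 0.636 to 0.683 CPM.

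The difference between exercise and control had opposite signs at the 2 days for Zbtb16, with every exercise library below every control library at day 5 and above at day 10. The 2 differences lie 2.19 apart on the log2 scale; this was not tested, the gene has 2 to 28 counts per library, and it passed the filter only through control day 5.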

How the results depend on the processing

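Over the 10 genes and 4 comparisons, 513 of 538 alternative values kept their direction and side of the threshold or, where no test was made, moved by less than the SD between libraries. The number of genes called for exercise against control was 80 with DESeq2 at day 5 and 227 at day 10 (0 and 29 with edgeR), and 0 at day 10 when only the 2 groups were fitted. With each library left out it was 0 to 1 at day 5 (1 without exercise replicate 7) and 0 to 133 at day 10. Of the tested genes of the set, 4 were called with time in control by DESeq2, 4 with only the 2 groups fitted, 1 with no filter and 1 to 2 with a library left out, against 2. DESeq2 added Errfi1 (adjusted p 0.0462) and the fit of 2 groups added Klf9 (0.00878). Both counts of 4 also hold Zbtb16, which is not read as a call because the filter kept it through its higher group, control day 5. Without the filter the control call of Nr3c1 was lost (0.34, adjusted p 0.0624). With time in exercise, 856 genes were called with only the 2 groups fitted, and 975 to 1839 with a library left out (975 without exercise day 5 replicate 7), against 1520; why was not tested.

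In these genes and the list genes named, signs turned only with 1 library left out. The values so obtained ran from -0.016 to 0.042 for Tsc22d3 at day 5 (below 0 without exercise replicate 7 or 12), from -0.32 to 0.62 for Hsd11b1 at day 5 (below 0 without control replicate 1 or exercise replicate 12) and from -0.12 to 0.025 for Fkbp4 with time in control (above 0 without control day 10 replicate 3 or day 5 replicate 5). With time in exercise they ran from -0.031 to 0.095 for Errfi1 (below 0 without day 5 replicate 2, 7 or 12 or day 10 replicate 17) and from -0.33 to 0.050 for Nfkbia (above 0 without day 10 replicate 13, 17 or 19). At day 10, untested, they ran from -0.15 to 0.11 for Tsc22d3 (below 0 without control replicate 4 or exercise replicate 18) and from -0.29 to 0.12 for Klf9 (above 0 without exercise replicate 17).

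Replicate numbers are shared by 2 libraries of each day 5 group (1 and 2) and by 2 control libraries of each day (2 and 5). Same-numbered libraries did not deviate together (r of 0.07 and -0.03 at day 5, 0.06 and 0.02 in control), so the numbers are not taken to pair them. With the replicate block, 0 genes were called at day 5, with Fkbp5 at -0.17, and 1657 with time in control, with Nr3c1 at 0.34 (edgeR adjusted p 0.0452) and Per1 at 1.06. No paired analysis was possible for day 10 exercise against control or for time in exercise because those groups share no numbers.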
